A study of Rattus norvegicus with 6 samples.

Results

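The 10 genes A2m, Lcn2, Orm1, Hp, Hpx, Lbp, Crp, Apcs, Saa4 and Cp were listed as positive acute phase proteins. They were taken by symbol from 20104 genes measured by RNA sequencing in rat liver. The list does not say how strongly each is induced in rats. All 10 were present in the table and all 10 passed the filter on low counts, which left 13872 genes. The livers had been injured and covered with a haemostatic dressing, and the repaired tissue was collected on day 14. The AKOC group (3 libraries) received AKOC, a name that the labels do not expand, in a series titled for kaolin scales anchored on cotton. The Quik-clot group (3 libraries) received Quik-clot, a commercial dressing that served as the control. Both groups had liver trauma, and no uninjured liver was analysed here. Strain, sex and age are not in the labels, nor is whether the libraries of a dressing came from separate animals. The p-values therefore reflect only how far these samples spread, and whether that spread lies between animals is not known. It exceeded sampling noise for every pair of libraries of a dressing. The stated purpose was to compare chronic inflammation after the dressings.

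Acute phase proteins are plasma proteins that hepatocytes release in larger amounts during infection and tissue injury. Interleukin 6, acting through STAT3, and interleukin 1, acting through NF-kappaB and C/EBP factors, drive their transcription, and glucocorticoids strengthen the response. The size of the response differs between species. In rats, alpha-2-macroglobulin is a major acute phase protein, whereas C-reactive protein is already abundant in the blood of healthy animals.

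Library totals ran from 40402312 to 41455378 counts, so depth differed little. All 10 hepatocyte markers were detected, with summed levels of 97535 to 155149 CPM in AKOC livers and 95672 to 125163 CPM in Quik-clot livers, most of it albumin. Of these markers 7 had negative log2 fold changes, with a median of -0.29. EdgeR called 0, with 2 lower after AKOC at an unadjusted p under 0.05 (Cyp2e1 and Hnf4a). Over all genes tested, 51.9% were negative and 5.57% were lower at that threshold. The markers Alb, Apoa1 and Ttr are also in the list of negative acute phase genes below. Tat and Serpina1 are also in that of other positive ones. The hepatocyte list is therefore not a reference independent of the acute phase response. Levels are counts per 1000000 (CPM), scaled between libraries with edgeR's TMM factors. Quik-clot replicate 3 was the highest library for most members, so the fold change of each member is given with and without it. That library was picked from these same values. Leaving out the highest Quik-clot library raises a fold change by construction, here and in the lists below, so such a rise is no separate evidence. In bulk tissue, fewer cells of a type and less RNA per cell cannot be told apart.

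No member passed the test between the dressings. The edgeR quasi-likelihood test with Benjamini-Hochberg adjustment called 0 of 10 members, and 0 of 10 reached an unadjusted p under 0.05. Over all 13872 genes tested it called 0 (0%), with 1671 (12.0%) at an unadjusted p under 0.05, 5.57% lower and 6.48% higher after AKOC. Log2 fold changes, AKOC over Quik-clot, were negative for 9 of 10 members and for 51.9% of all genes tested. DESeq2 called 0 members, against 289 genes (2.09%) of the 13849 it gave an adjusted p, and gave no adjusted p for A2m and Lcn2. Limma-voom, run with sample weights, called 0 members and 0 genes (0%). In 0 of 10 members were the dressings free of overlap, against 18.4% of all genes tested (8.85% lower and 9.53% higher after AKOC). The spread lay between libraries. In 9 of 10 members the highest library was at least 2-fold above the lowest, as in 34.8% of all genes tested. Quik-clot replicate 3 was the highest library for 9 of 10 members, against 20.0% of all genes tested. For 7 members AKOC replicate 2 came next, an order found in 3.65% of all genes. The members were chosen with earlier results of these data known, so these shares describe them and are not a test. By deposited FPKM, which carries no TMM factor, Quik-clot replicate 3 was highest for 8 members, against 7.03% of all genes, with Apcs then highest in Quik-clot replicate 1.

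Summed over the 10 members, the transcripts took 4.08%, 6.26% and 2.80% of all counts in AKOC replicates 1 to 3, and 3.06%, 4.23% and 8.43% in Quik-clot replicates 1 to 3. The share in Quik-clot replicate 3 was thus the highest and that in AKOC replicate 3 the lowest, and the dressings overlapped. These shares carry no TMM factor. After TMM scaling the sum was instead lowest in Quik-clot replicate 1, at 27337 CPM, against 29539 CPM in AKOC replicate 3. The median over members of log2 CPM, centred on the mean of the 6 libraries, was -0.17, 0.54 and -0.56 in the AKOC libraries and -0.65, -0.14 and 1.08 in the Quik-clot libraries.

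**Figure D1:**
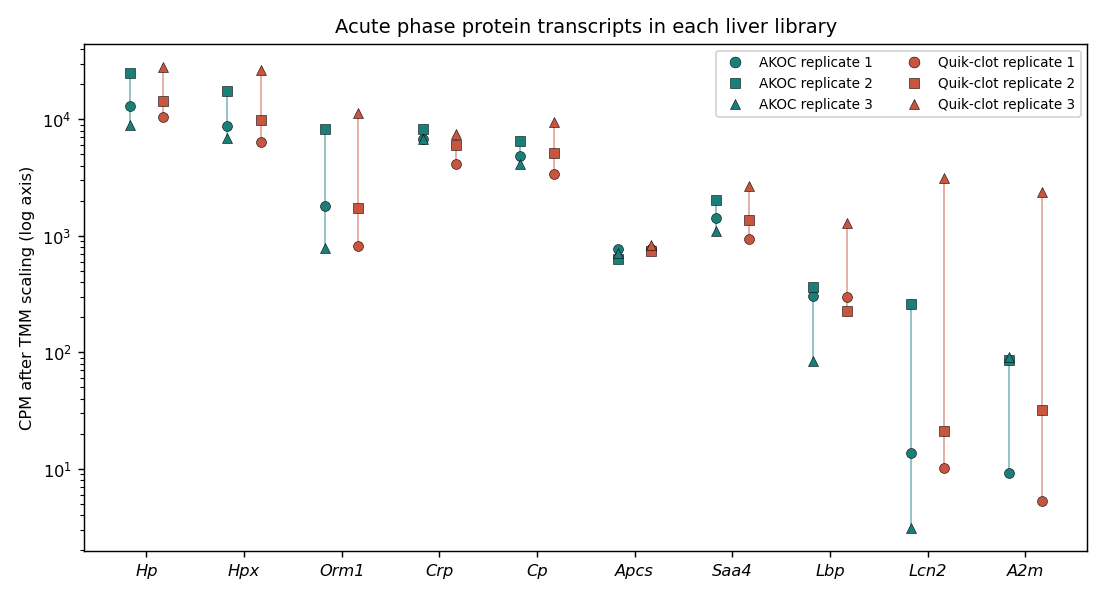
CPM after TMM scaling (log axis) of each member in each library, with AKOC left of Quik-clot for each gene, a symbol for each replicate and a line over the range of a dressing. Lcn2 spans 3.10 to 262 CPM in the AKOC libraries and 10.2 to 3166 CPM in the Quik-clot libraries, while Apcs stays between 632 and 840 CPM in all 6.

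A2m encodes alpha-2-macroglobulin, which traps proteases in the plasma. It had 9.13, 86.6 and 91.4 CPM in the AKOC libraries and 5.29, 31.9 and 2403 CPM in the Quik-clot libraries. Quik-clot replicate 3 was 26.3-fold above the next library, and without it the ranges of the dressings still overlapped. The middle library of each dressing was higher after AKOC, at 86.6 CPM against 31.9 CPM for Quik-clot, although the mean was 62.4 ± 46.2 CPM in AKOC livers and 813 ± 1376 CPM in Quik-clot livers (SD, n = 3 each). The log2 fold change, AKOC over Quik-clot, was -3.70 ± 2.0 (SE; edgeR adjusted p = 0.486). It was 1.75 ± 1.09 without Quik-clot replicate 3 (edgeR adjusted p = 0.620). On the scale of mean log2 CPM, where a single high library weighs less, the difference was -0.83. Limma-voom, which also weights each sample, gave a log2 fold change of -0.84 (adjusted p = 0.878).

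Lcn2 encodes lipocalin 2, which binds iron-loaded bacterial siderophores and is made by hepatocytes and neutrophils. It had 13.6, 262 and 3.10 CPM in the AKOC libraries and 10.2, 20.9 and 3166 CPM in the Quik-clot libraries. AKOC replicate 2 and Quik-clot replicate 3 were high and the other 4 libraries low, and AKOC held the lowest library. The highest library was 1021-fold above the lowest, the widest range among the 10 members. The log2 fold change was -3.52 ± 2.35 (SE; edgeR adjusted p = 0.567). Dropping Quik-clot replicate 3 gave 2.59 ± 1.72 (edgeR adjusted p = 0.628), whereas dropping AKOC replicate 2 gave -7.00 ± 2.97 (edgeR adjusted p = 0.614). The difference in mean log2 CPM was -1.97, and limma-voom gave a log2 fold change of -2.07 (adjusted p = 0.737).

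Orm1 encodes orosomucoid, the alpha-1-acid glycoprotein, a plasma lipocalin that binds small lipophilic molecules. It had 1810, 8357 and 790 CPM in the AKOC libraries and 823, 1737 and 11301 CPM in the Quik-clot libraries. As with Lcn2, a single library in each dressing was high, and the range was nearly as wide within AKOC (10.6-fold) as within Quik-clot (13.7-fold). The log2 fold change was -0.34 ± 1.13 (SE; edgeR adjusted p = 0.913). Dropping Quik-clot replicate 3 gave 1.52 ± 0.99, whereas dropping AKOC replicate 2 gave -1.84 ± 1.16.

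Hp encodes haptoglobin, which captures haemoglobin released from red cells, and was the member with the highest FPKM in every library. It had 12975, 25221 and 9002 CPM in the AKOC libraries and 10594, 14265 and 28204 CPM in the Quik-clot libraries. The high libraries were again AKOC replicate 2 and Quik-clot replicate 3, which differed by 1.12-fold. The log2 fold change was -0.17 ± 0.52 (SE; edgeR adjusted p = 0.906), and 0.34 ± 0.49 without Quik-clot replicate 3.

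Hpx encodes hemopexin, the plasma scavenger of free haem. It had 8837, 17418 and 6881 CPM in the AKOC libraries and 6403, 9979 and 26593 CPM in the Quik-clot libraries. The order of the 4 highest libraries was that of Hp. Its log2 fold change was -0.38 ± 0.60 (SE; edgeR adjusted p = 0.819), and 0.44 ± 0.47 without Quik-clot replicate 3.

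Cp encodes ceruloplasmin, a copper-carrying ferroxidase that helps load iron onto transferrin. It had 4888, 6551 and 4112 CPM in the AKOC libraries and 3379, 5143 and 9437 CPM in the Quik-clot libraries. Quik-clot held both the lowest and the highest library. Its log2 fold change was -0.21 ± 0.41 (SE; edgeR adjusted p = 0.854), and 0.29 ± 0.32 without Quik-clot replicate 3.

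Lbp encodes the lipopolysaccharide binding protein, which hands bacterial lipopolysaccharide to CD14 and TLR4. It had 303, 367 and 83.5 CPM in the AKOC libraries and 297, 227 and 1291 CPM in the Quik-clot libraries. Quik-clot replicate 3 was 3.52-fold above the next library, and AKOC replicate 3 was the lowest. With A2m and Lcn2, Lbp was among the 3 members in which Quik-clot replicate 3 stood at least 2-fold above every other library, as did 0.858% of all genes tested. The log2 fold change was -1.27 ± 0.77 (SE; edgeR adjusted p = 0.532), and -0.06 ± 0.56 without Quik-clot replicate 3.

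Saa4 encodes serum amyloid A4, an apolipoprotein of high-density lipoprotein. It had 1437, 2042 and 1098 CPM in the AKOC libraries and 946, 1358 and 2689 CPM in the Quik-clot libraries. Quik-clot replicates 1 and 3 were its lowest and highest libraries, as for Cp. Its log2 fold change was -0.13 ± 0.42 (SE; edgeR adjusted p = 0.913), and 0.41 ± 0.32 without Quik-clot replicate 3.

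Crp and Apcs encode the short pentraxins C-reactive protein and serum amyloid P component, which bind phosphocholine and other ligands on microbes and damaged cells. Crp had 6797, 8318 and 6771 CPM in the AKOC libraries and 4107, 6046 and 7548 CPM in the Quik-clot libraries. It was the only member with a positive log2 fold change, at 0.31 ± 0.29 (SE; edgeR adjusted p = 0.682), or 0.53 ± 0.29 without Quik-clot replicate 3, and the only one highest in an AKOC library. Apcs had 765, 632 and 707 CPM in the AKOC libraries and 771, 744 and 840 CPM in the Quik-clot libraries. Its log2 fold change was -0.16 ± 0.16 (SE; edgeR adjusted p = 0.693), or -0.11 ± 0.17 without Quik-clot replicate 3. The pentraxins had the narrowest ranges of the 10, with 2.03-fold between the highest and the lowest library for Crp and 1.33-fold for Apcs. The SD of log2 CPM over the 6 libraries was 0.14 for Apcs, larger than in 15.8% of genes tested, and 3.68 for Lcn2, larger than in 99.9%.

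**Figure D2:**
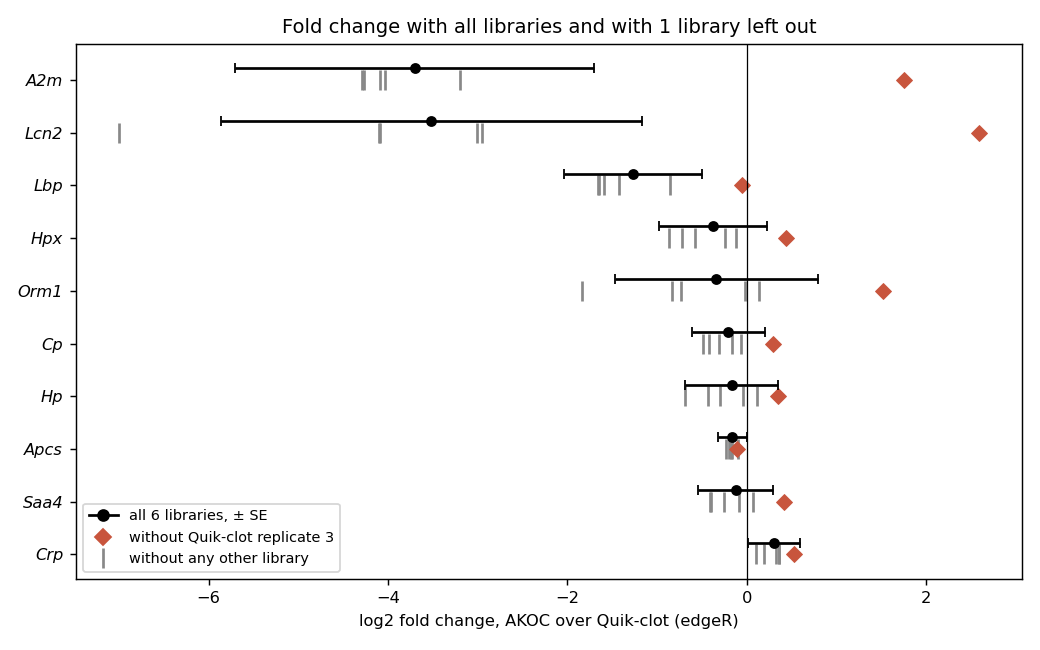
Log2 fold change, AKOC over Quik-clot, from edgeR for each member: the black points show all 6 libraries with ± SE, diamonds the fit without Quik-clot replicate 3 and grey ticks the fits without any other library. With all libraries 9 members are negative, and without Quik-clot replicate 3 there are 8 positive and 2 negative.

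Leaving out Quik-clot replicate 3 turned the sign of 7 members, which left 8 positive and 2 negative (Lbp and Apcs). Without AKOC replicate 3 there were 4 positive and 6 negative. Leaving out any of the other 4 libraries kept 1 positive and 9 negative. Without AKOC replicate 2, log2 fold changes were -4.03 for A2m, -7.00 for Lcn2, -1.84 for Orm1, -0.69 for Hp and -0.87 for Hpx. They were -1.65 for Lbp, 0.20 for Crp, -0.10 for Apcs, -0.40 for Saa4 and -0.42 for Cp. None of these fits called a member, and the lowest adjusted p of a member in any fit was 0.327 (A2m without Quik-clot replicate 2, edgeR). Without Quik-clot replicate 1, A2m had an unadjusted p of 0.0367 (edgeR adjusted p = 0.524). The 5 members with a higher middle library after AKOC were A2m, Orm1, Lbp, Crp and Saa4, and the other 5 had a lower one. By an exact permutation test, two-sided, whose smallest possible p with 3 libraries a dressing is 0.1, the members had 0.2 (Apcs) to 1 (Saa4).

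Levels were compared between genes on the deposited FPKM, which is scaled to transcript length. Over the 6 libraries the median FPKM was 12214 for Hp, 6804 for Hpx, 2450 for Orm1, 1602 for Crp and 1299 for Cp. It was 896 for Apcs, 861 for Saa4, 102 for Lbp, 21.2 for Lcn2 and 8.58 for A2m. Within libraries, Hp exceeded Hpx, Hpx exceeded Orm1 and Saa4 exceeded Lbp in 6 of 6. The other neighbours changed places in at least 1 library, and Apcs exceeded Saa4 in 4 of 6. Between neighbours, the FPKM ranges over all libraries were separate only for Saa4 and Lbp. For Crp, the deposited FPKM imply a transcript of 4144 bases, while the RefSeq gene spans 1917 bases in GRCr8, so its place in this order is uncertain. The Crp counts, and with them its CPM, fold change and narrow range, may also include reads from outside the RefSeq gene.

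By FPKM, Hp ranked 6, 3 and 8 among all genes in the AKOC libraries and 7, 3 and 2 in the Quik-clot libraries. A2m ranked 9016, 2736 and 2568 after AKOC and 10244, 5320 and 182 after Quik-clot. Lcn2 ranked 2424, 234 and 6239 after AKOC and 2908, 1784 and 24 after Quik-clot. A2m and Lcn2, which had the lowest median levels, thus also changed rank the most. Rank depends on how many genes lie at nearby levels, so a change in rank does not measure fold. A2m changed rank more than Lcn2, although its range in CPM was narrower, at 454-fold against 1021-fold.

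**Figure D3:**
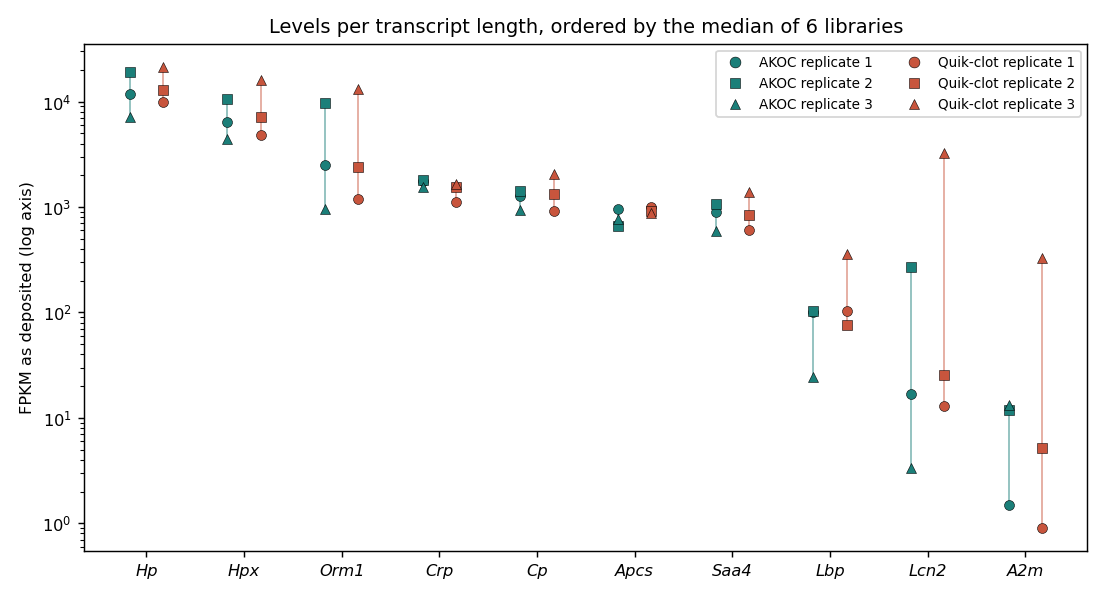
Deposited FPKM (log axis) of each member in each library, ordered from left to right by the median of the 6 libraries, with AKOC left of Quik-clot and a symbol for each replicate. Hp and Hpx lie between 4403 and 21261 FPKM in all libraries, while A2m lies between 0.904 and 331 FPKM.

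Promoters of 6 members (Lcn2, Orm1, Hpx, Crp, Apcs and Cp) were matched by symbol in the table of RefSeq promoters used here (GRCr8). Those of A2m, Hp, Lbp and Saa4 were not analysed here. The 250 bases before the start are shown for the 2 members with the widest range between libraries among the 6, Lcn2 and Orm1, and for the pentraxins, which had the narrowest. Capitals mark the letters of any motif searched. The windows lie at chr3:36081781-36082030 (minus strand) for Lcn2, chr5:81788259-81788508 (plus strand) for Orm1, chr13:87693812-87694061 (plus strand) for Crp and chr13:87906509-87906758 (minus strand) for Apcs.
Lcn2: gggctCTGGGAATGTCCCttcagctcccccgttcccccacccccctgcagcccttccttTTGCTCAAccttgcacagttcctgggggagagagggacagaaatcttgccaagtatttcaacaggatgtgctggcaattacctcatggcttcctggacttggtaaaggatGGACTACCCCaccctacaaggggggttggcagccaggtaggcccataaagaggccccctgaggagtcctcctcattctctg
Orm1: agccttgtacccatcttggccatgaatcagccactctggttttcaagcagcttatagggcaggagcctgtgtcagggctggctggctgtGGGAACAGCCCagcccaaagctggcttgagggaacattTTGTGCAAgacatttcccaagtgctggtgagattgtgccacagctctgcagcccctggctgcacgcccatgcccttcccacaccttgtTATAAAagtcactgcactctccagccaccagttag
Crp: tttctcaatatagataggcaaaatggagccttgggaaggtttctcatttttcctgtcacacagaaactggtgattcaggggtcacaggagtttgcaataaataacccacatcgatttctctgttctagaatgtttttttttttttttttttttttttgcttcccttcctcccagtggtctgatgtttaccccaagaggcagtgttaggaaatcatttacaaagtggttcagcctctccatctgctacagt
Apcs: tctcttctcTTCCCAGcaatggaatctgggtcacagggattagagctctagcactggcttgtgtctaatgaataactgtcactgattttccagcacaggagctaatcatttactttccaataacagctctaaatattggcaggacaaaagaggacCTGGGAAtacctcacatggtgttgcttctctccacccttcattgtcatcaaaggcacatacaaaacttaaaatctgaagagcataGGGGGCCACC

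The motifs were searched on both strands, and overlapping matches were each counted. The C/EBP pattern TTGCNNAA was found in Lcn2 (at -191 to -184, counted from the start), Orm1 (-123 to -116), Hpx (-200 to -193) and Cp (-72 to -65), and in 9.22% of the 33469 promoters of the same length. Crp and Apcs held no match to it in this window. The STAT3 palindrome TTCNNNGAA was found in none of the 6 windows and in 7.67% of all promoters. The type 2 interleukin 6 element CTGGGAA was found in Lcn2 (-245 to -239) and at 2 places in Apcs, and in 9.56% of all. A loose NF-kappaB pattern, GGG and CC with any 5 bases between them, was found in Lcn2, Orm1 and Apcs, and in 42.3% of all. Its matches on both strands near -243 in Lcn2 overlap each other and the CTGGGAA there, and those near -161 in Orm1 overlap each other. TATAAA, the TATA box, was found in Orm1 and Cp, and in 12.9% of all. These are matches of letters, not measured binding.

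Most other positive acute phase genes were also highest in Quik-clot replicate 3. Of 31 listed, 28 were tested, and edgeR called 0, with 1 lower at an unadjusted p under 0.05. Log2 fold changes were negative for 22 and positive for 6, with a median of -0.26, beside -0.01 over all genes tested. Without Quik-clot replicate 3 they were negative for 8 and positive for 20, with a median of 0.19. The highest library was Quik-clot replicate 3 for 21 of the 28 and AKOC replicate 2 for 5. Fgb, a fibrinogen chain, had 7859, 10888 and 7661 CPM in AKOC livers and 6169, 7241 and 16405 CPM in Quik-clot livers. Serpina3n, a serine protease inhibitor, had 3153, 3953 and 1951 CPM in AKOC livers and 2726, 2644 and 9876 CPM in Quik-clot livers. Il1rn, the interleukin 1 receptor antagonist, had 25.4, 47.8 and 26.9 CPM in AKOC livers and 27.9, 31.6 and 142 CPM in Quik-clot livers. C3, the central complement component, was instead highest in AKOC replicate 2, at 13723, 22980 and 14462 CPM in AKOC livers and 11706, 14177 and 20831 CPM in Quik-clot livers.

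Hamp, which encodes the iron hormone hepcidin and is also induced by interleukin 6, did not follow the members. It had 177, 63.8 and 27.2 CPM in AKOC livers and 822, 460 and 56.6 CPM in Quik-clot livers. The lowest Quik-clot library was replicate 3, where the members were high. Its log2 fold change was -2.32 ± 0.99 (SE; edgeR adjusted p = 0.414), and -2.84 ± 0.73 without that library. Mt2A, a metallothionein, was instead highest in Quik-clot replicate 3, at 25.6, 134 and 12.4 CPM in AKOC livers and 133, 66.9 and 508 CPM in Quik-clot livers. Its log2 fold change was -2.05 ± 1.03 with all libraries and -0.80 ± 0.93 without Quik-clot replicate 3. Nnmt, the nicotinamide N-methyltransferase, had -0.53 ± 0.26, or -0.33 ± 0.27 without that library.

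Negative acute phase genes, whose products decline during the response, had positive log2 fold changes in 12 of 15 tested, with a median of 0.36, and in 12 of 15 without Quik-clot replicate 3, with a median of 0.44. EdgeR called 0, with 1 higher at an unadjusted p under 0.05, against 6.48% of all genes tested. That gene was Apoa4, an intestinal and hepatic apolipoprotein, at 486, 508 and 930 CPM in AKOC livers and 153, 133 and 355 CPM in Quik-clot livers (log2 fold change 1.58 ± 0.44; edgeR adjusted p = 0.325, DESeq2 adjusted p = 0.00936). Ttr, the thyroxine carrier transthyretin, had 3147, 3502 and 5259 CPM in AKOC livers and 2733, 2869 and 1719 CPM in Quik-clot livers, and was lowest in Quik-clot replicate 3. Albumin (Alb) was not low there, at 90171 CPM, against 62611 and 70102 CPM in the other Quik-clot libraries.

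**Figure D4:**
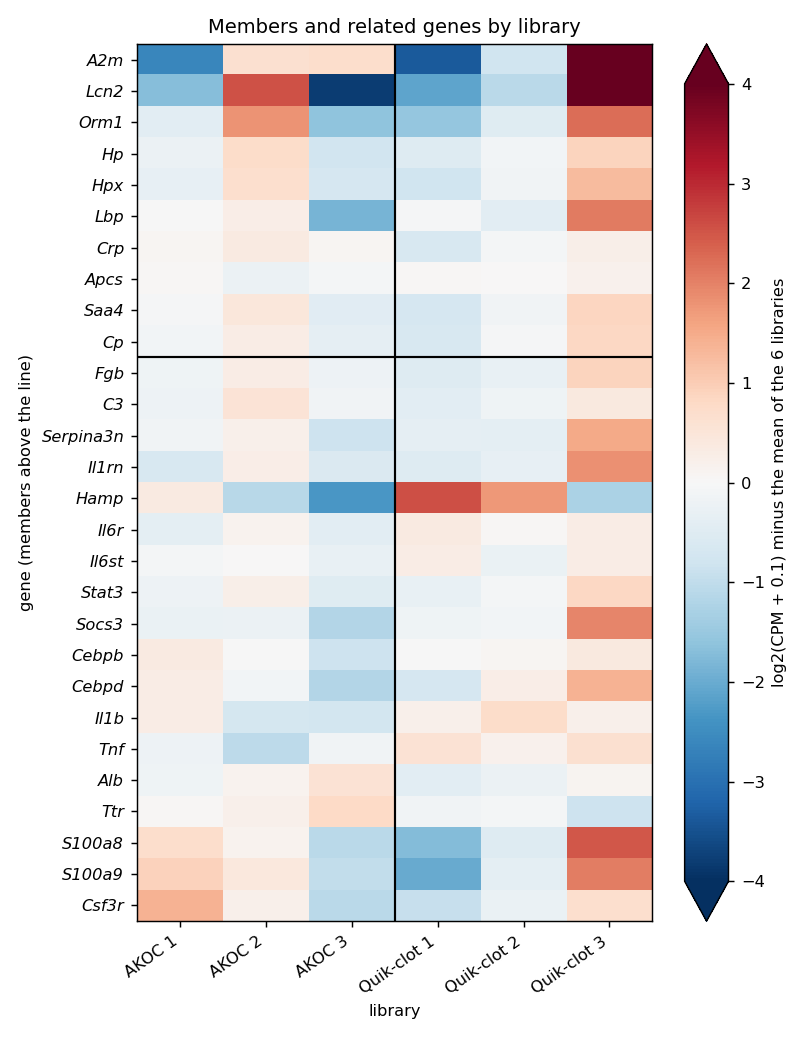
Colour shows log2(CPM + 0.1) of each gene minus its mean over the 6 libraries (columns), with AKOC left of the vertical line and the 10 members above the horizontal line. The scale ends at 4 in either direction, which A2m and Lcn2 exceed in Quik-clot replicate 3, and Hamp shows its highest values in Quik-clot replicates 1 and 2.

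Upstream, Il6 had 0 counts in each AKOC library and 1, 0 and 4 counts in the Quik-clot libraries and was below the filter. Of 20 genes of interleukin 6 signalling, 15 were tested and edgeR called 0, with 1 lower at an unadjusted p under 0.05 (Il6r, the receptor, -0.44 ± 0.19). Log2 fold changes were negative for 14 of the 15, with a median of -0.29, against 51.9% negative over all genes tested. Without Quik-clot replicate 3, 11 of the 14 genes then tested were negative, with a median of -0.15. Socs3, a STAT3 target that feeds back on the pathway, had 10.7, 11.1 and 5.71 CPM in AKOC livers and 11.4, 12.0 and 50.2 CPM in Quik-clot livers. Its dressings did not overlap, and its log2 fold change was -1.42 ± 0.61 (SE; edgeR adjusted p = 0.414), or -0.35 ± 0.29 without Quik-clot replicate 3. Stat3 itself had 150, 204 and 123 CPM in AKOC livers and 141, 162 and 307 CPM in Quik-clot livers. The highest and the second library of Stat3 were those of most members. The signal-transducing subunit Il6st had a log2 fold change of -0.25 ± 0.20. Junb, a transcription factor gene, had 13.9, 16.6 and 7.74 CPM in AKOC livers and 12.0, 17 and 56.5 CPM in Quik-clot livers. The log2 fold change of Junb was -1.16 ± 0.59 with all libraries and -0.18 ± 0.33 without Quik-clot replicate 3.

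Of 19 genes of interleukin 1 and TNF signalling, all tested, 17 were negative (14 without Quik-clot replicate 3), against 51.9% of all genes tested. EdgeR called 0, with 3 lower at an unadjusted p under 0.05, against 5.57% of all genes tested. These were Nfkbiz (-0.65 ± 0.17), an NF-kappaB cofactor, Il1a (-0.62 ± 0.19), which encodes interleukin 1 alpha, and Nfkbia (-0.37 ± 0.16), the NF-kappaB inhibitor. Il1b had 8.37, 4.08 and 3.99 CPM in AKOC livers and 7.68, 11.4 and 7.75 CPM in Quik-clot livers. Tnf had 0.224, 0.0801 and 0.235 CPM in AKOC livers and 0.457, 0.321 and 0.486 CPM in Quik-clot livers. Il1b was highest in Quik-clot replicate 2, and for Tnf Quik-clot replicates 1 and 3 were close.

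Of 13 C/EBP, glucocorticoid and hepatocyte factors, 10 were negative, with a median of -0.31. Without Quik-clot replicate 3, 11 were negative, with a median of -0.11. EdgeR called 0 with all libraries, with 3 lower at an unadjusted p under 0.05, against 5.57% of all genes tested. Those were Fkbp5 (-1.18 ± 0.40), a glucocorticoid target, the hepatocyte factor Hnf4a (-0.41 ± 0.15) and Per1 (-0.66 ± 0.24), a clock and glucocorticoid-responsive gene. Cebpd had 8.19, 6.14 and 2.95 CPM in AKOC livers and 4.20, 8.11 and 17.6 CPM in Quik-clot livers. Cebpb varied less, at 77.3, 60.1 and 34.1 CPM in AKOC livers and 60.0, 63.3 and 79 CPM in Quik-clot livers.

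Of 16 receptors and partners of the proteins, edgeR called 0. DESeq2 called 2 lower, against 2.09% called in either direction over all genes it gave an adjusted p. In edgeR 4 were lower at an unadjusted p under 0.05, against 5.57% of all genes tested. Log2 fold changes were negative for 11 of the 16, with or without Quik-clot replicate 3, against 51.9% of all genes tested with all libraries. Slc40a1, the iron exporter ferroportin that works with ceruloplasmin, had 150, 156 and 128 CPM in AKOC livers and 243, 205 and 214 CPM in Quik-clot livers (log2 fold change -0.60 ± 0.14; edgeR adjusted p = 0.303, DESeq2 adjusted p = 0.00651). Cd14, the receptor that Lbp serves, had 42.6, 39.1 and 30.3 CPM in AKOC livers and 58.0, 53.5 and 73.2 CPM in Quik-clot livers (-0.72 ± 0.17; edgeR adjusted p = 0.303, DESeq2 adjusted p = 0.0280). The dressings did not overlap in either gene, and in both the 3 AKOC libraries were the lowest. Hmox1, which breaks down haem, had -0.75 ± 0.21, and Cd163, the scavenger receptor for haptoglobin bound to haemoglobin, -0.51 ± 0.16. Lrp1, a receptor for alpha-2-macroglobulin and hemopexin complexes, had 0.06 ± 0.25, and the lipocalin 2 receptor gene Slc22a17 0.06 ± 0.16.

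Neutrophil markers were also mostly highest in Quik-clot replicate 3. Of 12 listed, 7 were tested, edgeR called 0 and 0 reached an unadjusted p under 0.05. The summed level of the 11 markers in the table was 51.3, 35 and 13.2 CPM in AKOC livers and 9.77, 22.4 and 125 CPM in Quik-clot livers, and Quik-clot replicate 3 was highest for 6 of the 7. Log2 fold changes were negative for 5 of the 7, and for 1 of the 7 without that library. S100a8 had 12.3, 8.35 and 3.49 CPM in AKOC livers and 2.18, 5.25 and 43.0 CPM in Quik-clot livers. The granule genes Mpo and Elane stayed at or below 0.0653 CPM in all libraries. Csf3r, the receptor for granulocyte colony-stimulating factor, was highest in AKOC replicate 1, at 6.78, 2.94 and 1.15 CPM in AKOC livers and 1.31, 2.11 and 4.13 CPM in Quik-clot livers. Lcn2 had 3166 CPM in Quik-clot replicate 3, but CPM is not scaled to transcript length, so the CPM sum of this list cannot be set against it. A comparison on FPKM was not made here. The part of neutrophils in the member levels was not tested. Kupffer cell and macrophage markers had sums of 1005, 1019 and 700 CPM in AKOC livers and 837, 1319 and 1092 CPM in Quik-clot livers, and 0 of 10 were highest in Quik-clot replicate 3. Log2 fold changes were negative for 8 of these 10 and positive for 2, with a median of -0.24. EdgeR called 0, with 2 lower at an unadjusted p under 0.05 (Csf1r and Cd163, which is also among the receptors above), against 5.57% of all genes tested.

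**Figure D5:**
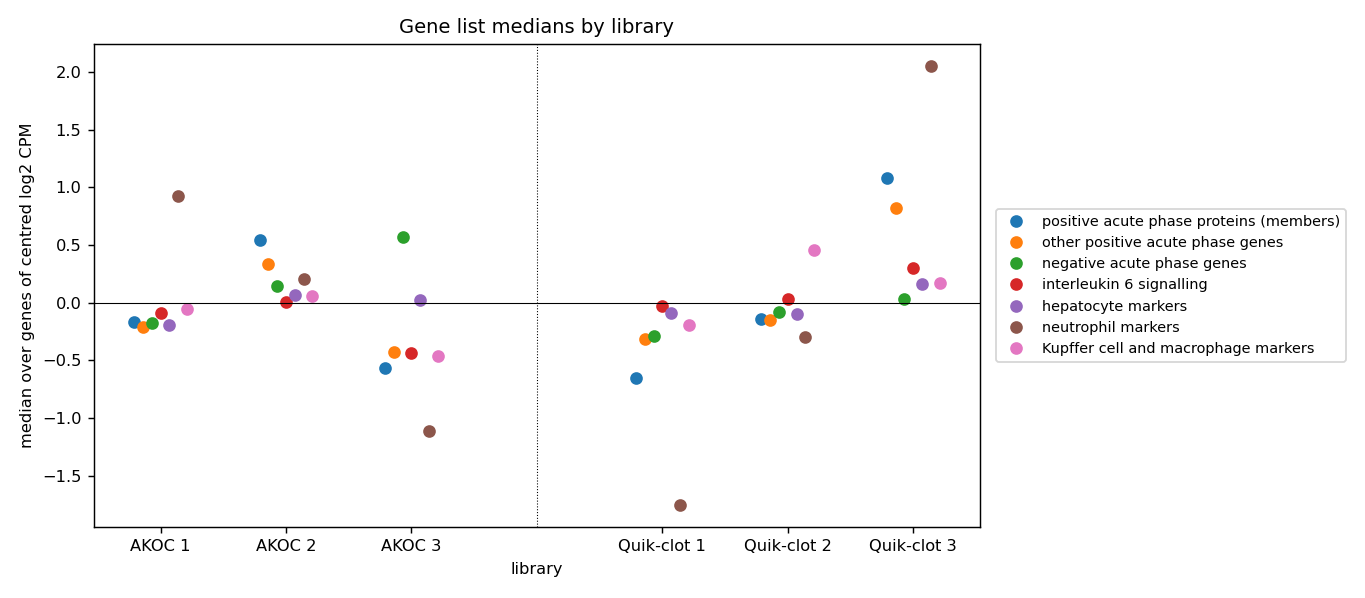
Each point is the median, over the tested genes of a list, of log2 CPM centred on the mean of the 6 libraries, with AKOC libraries left and Quik-clot libraries right. The members reach 1.08 and the neutrophil markers 2.05 in Quik-clot replicate 3, where the negative acute phase genes stand at 0.03.

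Outside the members, 11347 genes with a mean of at least 1 CPM were ranked by the root mean square difference of centred log2 CPM over the 6 libraries. Nearest to A2m was Nptx2, a long pentraxin, at a difference of 0.94, with 0.0898, 0.988 and 0.886 CPM in AKOC livers and 0.152, 1.08 and 14.7 CPM in Quik-clot livers. Sstr3, Hebp2, Igfbp1 and Esm1 followed at 1.72 to 1.87. Nptx2, Sstr3, Hebp2 and Esm1 passed the minimum of 1 CPM only through Quik-clot replicate 3. Sstr3 had 15.7 CPM there and 0.206 to 0.457 CPM in the other libraries. Igfbp1, a liver binding protein for insulin-like growth factors, had 42.5, 167 and 52.1 CPM in AKOC livers and 46.0, 23.6 and 630 CPM in Quik-clot livers. Nearest to Lcn2 were Scube1 (1.13), Fst (1.41), Sult2a2 (1.70), Hebp2 (2.0) and the neutrophil collagenase Mmp8 (2.05). Fst and Hebp2 passed the minimum only through Quik-clot replicate 3. Scube1 had 0.830, 6.99 and 0.182 CPM in AKOC livers and 0.326, 0.275 and 24.7 CPM in Quik-clot livers. Among the nearest to the median of the other 8 members were C9, a terminal complement component (0.13), Tnfrsf21 (0.14), the kinase and STAT3 target Pim1 (0.16) and Efemp2 (0.16). C9 had 2430, 4273 and 1942 CPM in AKOC livers and 1671, 2470 and 4521 CPM in Quik-clot livers, and its 4 highest libraries stood in the order seen in Hp.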

How the data were processed

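RNA from 6 rat liver samples was sequenced. Fastp, HISAT2 and HTSeq and the build mRatBN7.2 are named in the submitters' processing notes; for their versions, the annotation and the strand setting, the sources used here give nothing. The authors deposited whole-number counts per gene without normalization, and a second table deposited by the authors gives FPKM for the same genes. Groups and replicate numbers came from the titles. Members and gene lists were chosen with earlier results of these data known. The filterByExpr function of edgeR 4.0.16 (R 4.3.3; minimum count 10, minimum total 15) kept 13872 genes. Counts were scaled by TMM and tested with the two-sided quasi-likelihood F test. Benjamini-Hochberg adjustment ran over the 13872 genes, and calls were made where the adjusted p was under 0.05. The SE of a log2 fold change is the absolute change over the root of F. Log2 CPM used a prior count of 2. DESeq2 1.42.0, limma 3.58.1 (voom with sample weights, and trend), other scalings and filters, a replicate block, and fits that each dropped 1 library were alternatives. The test was also run on simulated counts, and the outcome is not reported here.

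All members are described. Of each other list, up to 4 genes with the smallest unadjusted p and a fixed panel may be named. Genes of like pattern are the 5 nearest to A2m, to Lcn2 and to the median of the other 8 members, whatever their distance. Some genes that these rules name are not reported here. The promoter sequences are from RefSeq (GRCr8), so no gene coordinates on the authors' build are given. No pair of libraries in a dressing agreed within sampling noise. With 3 libraries a dressing, the spread between libraries, not the counting error, sets the precision. Reads of Kng and Mt family members and of Mug1 and Mug2 may be shared between near-identical genes, so single values there are uncertain.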

Additional observations from a re-analysis of the deposited data

How the results depend on the processing

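Of 150 pairs of a member and any of 15 alternatives, 139 kept the sign and 11 turned it, and none brought a member past the threshold. The turns came from leaving out libraries, except that Orm1 had 0.27 with the replicate block. The block also moved A2m to -0.34 and Lcn2 to -0.01, and limma-voom moved them to -0.84 and -2.07. Over the 6 fits without 1 library each, the log2 fold change ran from -4.29 to 1.75 for A2m, -7.00 to 2.59 for Lcn2, -1.84 to 1.52 for Orm1 and -0.69 to 0.34 for Hp. It ran from -0.87 to 0.44 for Hpx, -0.41 to 0.41 for Saa4 and -0.49 to 0.29 for Cp, and kept its sign for Lbp, Crp and Apcs. Over all genes, edgeR called 0, DESeq2 289, the replicate block 1 and the fits without 1 library 0 to 18 (18 when Quik-clot replicate 2 was dropped, 10 for AKOC replicate 1 and 2 for AKOC replicate 2). The related lists had 0 genes past the threshold in edgeR and 4 in DESeq2. Whether the replicate numbers pair the samples is not in the labels. Deviations of same-numbered libraries had correlations across genes of -0.07, -0.08 and -0.20, which cannot settle it with so few libraries. The block called 0 members, as did the main fit. Quik-clot replicate 3 was highest for 9 members on TMM-scaled CPM and 8 on FPKM, an alternative chosen after seeing the data, as were the list counts and the values of Junb, Mt2A, Socs3, Nnmt and Hamp without Quik-clot replicate 3. Promoter matches numbered 16 in the bases before the start and 18 in the whole window.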

Other observations

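The deposited annotation tags 42 genes with the acute-phase response, among them 6 of the 10 members (A2m, Lcn2, Orm1, Hp, Lbp and Saa4). This set was chosen after the member values were seen. Of the 36 tested, 25 had a negative and 11 a positive log2 fold change, with a median of -0.15 and 0 called by edgeR. Quik-clot replicate 3 was the highest library for 16 of them, against 20.0% of all genes tested. The 6 members are counted among these, and all 6 were negative and highest in that library.

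T and NK cell markers were highest as a list in a different Quik-clot library from the members. Their median centred log2 CPM was -0.43, 0.01 and -0.53 in the AKOC libraries and 0.06, 1.23 and -0.09 in the Quik-clot libraries, with the high value in replicate 2. All 7 tested were negative, against 51.9% of all genes tested. EdgeR called 0, with 2 lower at an unadjusted p under 0.05, against 5.57% of all genes tested. These 2 were Gzma (-1.19 ± 0.47) and Prf1 (-1.0 ± 0.42), both genes of cytotoxic granules. Stellate cell and myofibroblast markers lay on both sides, with 5 of 9 positive, 4 negative and 0 called by edgeR, and 1 higher at an unadjusted p under 0.05 (Pdgfrb, 0.77 ± 0.26, a growth factor receptor of stellate cells). Endothelial markers had 6 of 8 negative and 0 called, with 2 lower at an unadjusted p under 0.05 (Pecam1 and Lyve1), against 5.57% of all genes tested. Cholangiocyte markers had 5 of 7 negative, and Spp1, which encodes osteopontin, stood at -1.34 ± 0.35 (edgeR adjusted p = 0.314, DESeq2 adjusted p = 0.0288).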
